A study of Mus musculus with 6 samples.

Results

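Actb encodes β-actin and Gapdh encodes glyceraldehyde-3-phosphate dehydrogenase, and their mRNAs are the usual internal references of expression work. m6A was examined at every listed position of their gene windows, each gene by itself. The windows were chr5:142888870-142892509 for Actb and chr6:125138678-125143450 for Gapdh (GRCm39, both on the minus strand). They held 84 of the 567667 listed positions, 54 in Actb and 30 in Gapdh, and the other 567583 positions served as the comparison. No position of either gene was listed more than once.

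The data were 6 direct RNA libraries of mouse HCICs, which are cultured cells that can start HCC, taken from livers of male mice given the procarcinogen DEN. MTH-WT cells kept Mthfd1l and MTH-D cells carried a CRISPR/Cas9 knockout of it, with 3 libraries in each group, numbered 1 to 3 in the labels, all of batch 1. The question was whether the loss of MTHFD1L, a mitochondrial enzyme of one-carbon metabolism, changed m6A. By the paper, 1 control (CTL) and 2 double knock-in (DKI) HCIC lines, from 3 mice, were knocked out. DKI mice carry a point mutation in MDM2 and serine mutations in MDMX, with wild-type p53. The m6A work used HCIC-1 (CTL) and HCIC-3 (DKI), since MTH-D HCIC-2 (DKI) had only a deletion of 1 nucleotide. Knockout cells were made with lentiviral Cas9 and guides and grown from single colonies. MTH-WT controls, also single colonies, carried Cas9 with no guide against Mthfd1l, so a line may stand for a clone. The labels do not say which library came from which line, and they do not say whether same-numbered libraries share one. The 2 lines named for the m6A work cannot give 3 libraries a group from separate lines. By the paper, direct RNA sequencing also covered HCIC-2, so some libraries may share a line or come from HCIC-2. The table held no expression values, so neither the cell type nor the abundance of the 2 mRNAs could be checked.

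m6A is a methyl group on adenosine, placed mostly by the METTL3-METTL14 enzyme with S-adenosylmethionine as the donor, and the methionine cycle that makes this donor draws on one-carbon units. The enzyme favors the motif DRACH, which reads any base but C, then A or G, the methylated A, C, and any base but G. GGACT is among its strongest forms, and m6A in mRNAs gathers near the stop codon and in the 3′UTR. β-actin builds the actin cytoskeleton, while GAPDH carries out a step of glycolysis.

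To see which adenosine each position was, the DRACH motifs of the Actb and Gapdh mRNAs were laid on the listed positions by their spacing within each exon. Of 32 motifs in the Actb mRNA (1920 bases, coding bases 110 to 1237), 31 fell on a listed position. Exon 6, the longest, had 13 of 13 motifs in place against 4 at the next best placement. Of 23 motifs in the Gapdh mRNA (1272 bases, coding bases 93 to 1094), 20 fell on a listed position, among them 6 of 7 in exon 7 against 2 at the next best. The motifs left over lay in the first 2 exons of each gene, apart from 1 of Gapdh in exon 7. Those first exons held at most 1 motif each, fewer than the 3 needed for a match, so their motifs could not be placed. Positions in the mRNA are counted from 1 at its 5′ end.

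The Actb mRNA held 4 GGACT motifs and the Gapdh mRNA held 0. Among protein-coding mouse transcripts within 10% of the same length, 19.8% (of 4661) held at least 4 GGACT motifs and 21.7% (of 3233) held none. The sequences below are the 4 GGACT sites of Actb and, for Gapdh, the 4 motif sites with the highest mean m6A, all from GENCODE transcripts of release 21. Each is written 5′ to 3′ along the mRNA with the 5 letters of the motif in capitals.
Actb 1242 (3′UTR): gcttctaggcGGACTgttactgagc
Actb 1502 (3′UTR): atgtggctgaGGACTttgtacattg
Actb 570 (coding): gcattgtgatGGACTccggagacgg
Actb 261 (coding): tgggtcagaaGGACTcctatgtggg
Gapdh 1124 (3′UTR): accccagcaaGGACActgagcaaga
Gapdh 1209 (3′UTR): acccccataaTAACAggaggggcct
Gapdh 1063 (coding): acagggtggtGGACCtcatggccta
Gapdh 645 (coding): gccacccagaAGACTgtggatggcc

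Among the 31 motif sites of Actb, m6A was concentrated at 3 GGACT sites, and the remaining motifs carried little of it. Of the 9 listed Actb positions averaging at least 10%, the other 6 had no motif on the mRNA strand. The highest site was mRNA position 1242, 5 bases past the stop codon (chr5:142889548). Its m6A was 54.14%, 54.37% and 46.53% in MTH-WT libraries 1 to 3 and 46.59%, 52.81% and 42.03% in MTH-D libraries 1 to 3. The adenosine was thus called modified in 42.03% to 54.37% of the reads, depending on the library.

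The second was position 1502, further into the 3′UTR (chr5:142889288). It measured 26.66%, 29.39% and 21.69% in MTH-WT and 21%, 28.29% and 19.39% in MTH-D. The third was position 570 in the coding sequence (chr5:142890440), with 22.09%, 22.86% and 17.75% in MTH-WT and 22.17%, 20.89% and 15.95% in MTH-D. At all 3 sites the libraries numbered 3 were the lowest of their group, and the ranges of the groups overlapped.

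The fourth GGACT, at position 261 in the coding sequence (chr5:142891203), had a mean of only 2.63% over the 6 libraries. The 4 GGACT sites of this mRNA thus ran from 2.63% to 49.4%. The 27 motif sites with other letters had means from 0.0717% to 6.98%. The highest of these was AGACA at position 1315 in the 3′UTR, with 6.87%, 8.45% and 6.02% in MTH-WT and 5.78%, 8.95% and 5.78% in MTH-D. Next came AAACT at position 1431, with a mean of 4.35%. The 2 GGACC sites at 645 and 660 stayed at 1.27% and 0.922%, and the 6 TGACA sites lay between 0.117% and 1.81%.

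**Figure D1:**
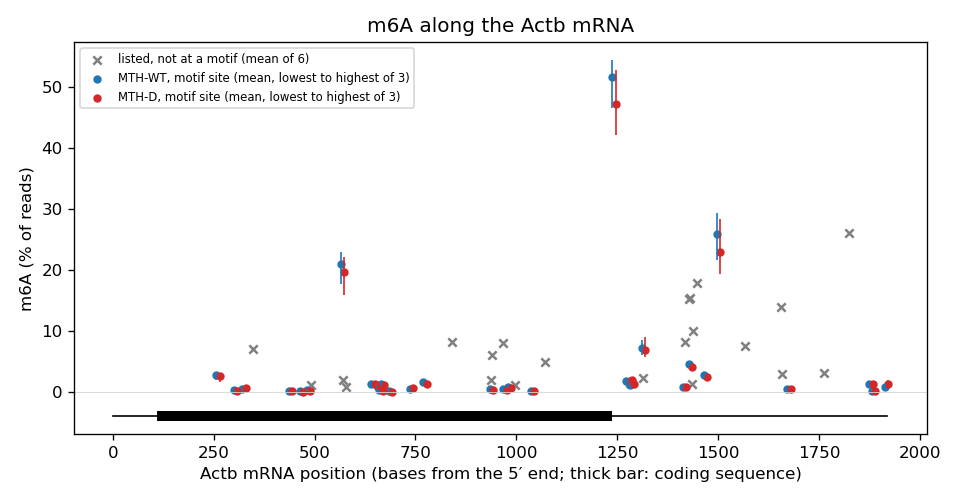
m6A (percent of reads) against the position in the Actb mRNA (bases from its 5′ end). Colored points are the means of 3 MTH-WT and 3 MTH-D libraries at the 31 motif sites with lines from the lowest to the highest library, grey crosses are the means of 6 libraries at the 23 other listed positions, and the thick bar is the coding sequence. Sites 570, 1242 and 1502 stand at 20.3%, 49.4% and 24.4%, while the other 28 motif sites stay at or under 6.98%.

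By region, the 13 motif sites of the Actb 3′UTR had a median of 1.81% and the 18 coding sites one of 0.481%. The 3 high sites held 73.5% ± 0.918 (SD, n = 6) of the m6A summed over the 31 motif sites, and this share stayed between 71.7% and 74.2% in every library. This share thus varied less between libraries than the summed level did. As the 3 sites make up most of the sum, the share moves less than the sites themselves. Summed over the 31 motif sites, the fractions came to 1.33 ± 0.143 for MTH-WT and 1.23 ± 0.152 for MTH-D (SD, n = 3 each). The groups were not separated in this sum (two-sided exact permutation test, p = 0.4). It would be the mean number of modified motif adenosines per mRNA only if the reads at each site stood for the same mRNAs. This was not tested.

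The other 23 listed positions of Actb lay in the same exons without a DRACH motif on the mRNA strand. MTH-WT libraries averaged 7.65% ± 1.05 and MTH-D libraries 6.83% ± 0.259 at these positions (SD, n = 3), above the 4.30% ± 0.460 and 3.96% ± 0.492 of the motif sites. The mRNA base was A at 17 of them, T at 3, C at 2 and G at 1. Of the 23, 60.9% had a 0 in at least 1 library, against 6.45% of the motif sites. With depth unknown and m6A a mark of adenosine, their higher mean does not show more m6A off the motif. Of the 17 adenosines, 15 differed from DRACH by 1 letter. At 2 positions the motif lay on the opposite strand, and the table gives no strand.

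The highest of them was one of these 2, position 1825 in the 3′UTR. It measured 29.17%, 21.43% and 24.14% in MTH-WT and 21.43%, 20% and 40% in MTH-D. A CGACA at 1449 had a mean of 17.9%. Neighbors at 1430 and 1429, in a run of adenosines before the AAACT site, had means of 15.3% and 15.2%, a TGAGT at 1656 had 13.95%, and a GAACG at 1437 had 10.003%. The C next to the motif adenosine of 1416, at 1417, averaged 8.25%. These positions were noisier than the motif sites, with a median pooled SD of 70% of the mean against 22.5%.

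Actb motif sites also repeated better between libraries than the table did as a whole. The pooled SD within groups was 4.96 points at 1242, where other positions averaging 40 to 60% had a median of 8.11 and a lower quartile of 6. At 1502 and 570 it was 4.34 and 3.03 points, against a median of 6.1 for positions averaging 20 to 30%. As a share of the mean, the median SD was 22.5% over Actb motif sites and 90.4% over all other positions, which were not limited to motif sites. Gapdh did not share this trait, at 113% over its motif sites and 124% over all its positions.

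Gapdh had few positions with high m6A, with 1 of 30 (3.33%) averaging 10% or more, against 14.3% elsewhere. Its median of the position means, 0.9675%, was near the 0.958% elsewhere, and 16.7% of its positions averaged at least 5%, against 20.7%. Its mRNA sites were led by GGACA at 1124 in the 3′UTR (chr6:125138965), at 4.24%, 9.59% and 6.51% in MTH-WT and 13.07%, 4.60% and 14.52% in MTH-D. Next came TAACA at 1209 in the 3′UTR (chr6:125138880), at 9.24%, 8.16% and 5.97% in MTH-WT and 9.02%, 5.66% and 12.50% in MTH-D. MTH-D libraries 1 and 3 were the highest at site 1124 and library 2 was near the lowest, so the groups overlapped at both sites.

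Below these were GGACC at 1063 in the coding sequence, with a mean of 5.23%, and AGACT at 645, with 4.03%. GGACC at 1105 and TGACA at 856 averaged 2.84% and 2.81%. The 4 sites of the 3′UTR had a median of 5.63% and the 16 coding sites one of 0.595%, with 5.23% the highest coding mean. Both mRNAs thus had higher medians in the 3′UTR than in the coding sequence. The 3 highest sites held 54.7% ± 9.7 (SD, n = 6) of the sum over motif sites, from 44.5% to 71.4% between libraries, a wider range than in Actb. Summed fractions were 0.401 ± 0.0552 for MTH-WT and 0.405 ± 0.0997 for MTH-D (SD, n = 3 each, two-sided exact permutation test, p = 1).

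**Figure D2:**
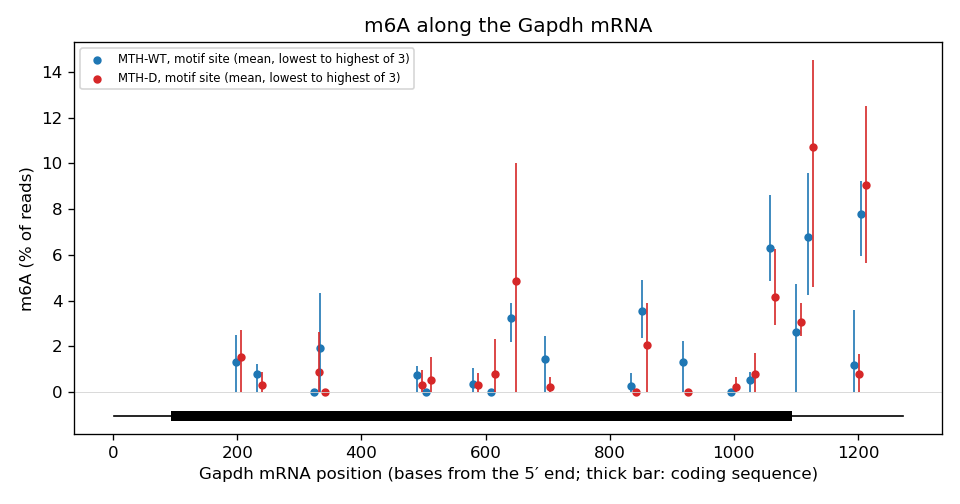
m6A (percent of reads) against the position in the Gapdh mRNA (bases from its 5′ end). Points are the means of 3 MTH-WT and 3 MTH-D libraries at the 20 motif sites, lines run from the lowest to the highest library, and the thick bar is the coding sequence. The highest means are at 1124 and 1209 in the 3′UTR, 8.76% and 8.43% over 6 libraries, and the lines of the 2 groups overlap at both.

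The other 10 listed positions of the Gapdh window lay outside the matched exons. By their place, 3 fell between exons 4 and 5, 3 between exons 5 and 6, 3 upstream of exon 3 and 1 past the last exon. Those upstream of exon 3 may lie in exons 1 or 2, which could not be matched. The position with the highest mean in the window was one between exons 4 and 5 (chr6:125139747). It measured 6.25%, 7.69% and 6.82% in MTH-WT and 11.63%, 27.78% and 0% in MTH-D, so MTH-D held both its highest and its lowest library. The position past the last exon (chr6:125138693) averaged 6.72%, another between exons 4 and 5 (chr6:125139700) 4.59%, and one between exons 5 and 6 (chr6:125139398) 2.37%.

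The share of values at exactly 0 differed sharply between the genes. In Actb 11.7% ± 4.0 (SD, n = 6) of the positions were at 0 or 100% in a library, against 34.3% of all other positions. The difference was -22.5 points, with Actb lower in 6 of 6 libraries (two-sided exact sign-flip permutation test, p = 0.0312, the smallest 6 libraries can give, and 0.0624 adjusted over the 2 genes). At the Actb motif sites the share was 1.08%, and only 2 of 31 sites had a 0 in any library.

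In Gapdh 48.3% ± 17.0 (SD, n = 6) of the positions were at 0, with 40%, 60% and 40% in MTH-WT and 23.3%, 56.7% and 70% in MTH-D. This was 14.1 points above all other positions, and higher in 5 of 6 libraries (exact sign-flip permutation test, p = 0.0938, adjusted p = 0.0938). No position of either gene was at 100%. Of the 30 Gapdh positions, 26 had a 0 in at least 1 library, a share of 86.7%, against 29.6% in Actb and 63.6% elsewhere. The smallest value above 0 was 0.62% in Gapdh and 0.03% in Actb. The table gives no coverage, and a 0 depends on the depth as well as on the m6A level, so depth remained unknown for both genes. Gapdh values did not show the fine steps and rare zeros of Actb values.

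**Figure D3:**
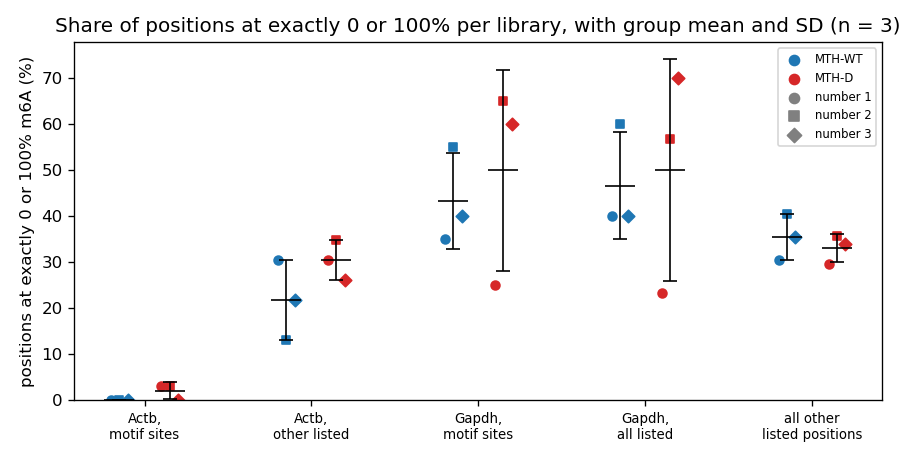
Share of positions at exactly 0 or 100% m6A (percent) in each library, by set of positions. Points are libraries, colored by group and shaped by number, with the group mean and SD (n = 3). Actb motif sites lie at 0 or 3.23%, Gapdh between 23.3% and 70%, and all other positions between 29.7% and 40.4%.

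Mean m6A over all listed positions was lower in both genes than in the rest of the table. It was 5.45% ± 0.517 (SD, n = 6) in Actb, 2.31% ± 0.515 in Gapdh and 6.90% ± 0.548 over all other positions. The difference from the rest was -1.45 points in Actb and -4.59 points in Gapdh, and Actb was 3.14 points above Gapdh, each with the same sign in 6 of 6 libraries. The exact sign-flip permutation test gave p = 0.0312 for each, the smallest possible, with an adjusted p of 0.0312 over the 3 comparisons. With the positions fixed, it measures how well a difference repeats between libraries, and not whether either gene is unusual among genes. The medians gave another order: the Actb median was 0.566 points above that of the rest (p = 0.0312, exact sign-flip permutation test), and Gapdh differed from the rest by -0.212 points (p = 0.469, exact sign-flip permutation test). The median of the position means was 6.03% at the Actb positions without a motif and 0.922% at its motif sites, against 0.958% elsewhere, so the higher Actb median came with the positions that had no motif. Of the Actb positions 16.7% averaged at least 10%, against 14.3% elsewhere, and 1.85% averaged at least 40%, against 5.57%. Over motif sites alone the Actb mean differed from the rest by -2.77 points. Dropping positions with a 0 or 100% kept 38 of 54 in Actb, only 4 of 30 in Gapdh and 204109 of 567583 elsewhere. On these unequally reduced sets, the difference from the rest was -9.63 points in Actb and -8.86 in Gapdh. There Actb minus Gapdh was -0.769 points (p = 0.531, exact sign-flip permutation test).

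No test separated MTH-D from MTH-WT in Actb at this number of libraries. Mean m6A over its 54 positions was 5.55%, 6.44% and 5.18% in MTH-WT and 5.15%, 5.37% and 5.02% in MTH-D. The group means were 5.72% ± 0.646 and 5.18% ± 0.174 (SD, n = 3), which differed by -0.543 points (p = 0.2, two-sided exact permutation test, where 3 against 3 cannot go below 0.1, adjusted p = 0.6 over 6 comparisons). Same-numbered libraries differed by -0.402, -1.07 and -0.156 points (exact sign-flip permutation test, p = 0.25, the smallest 3 pairs can give). Without MTH-WT library 2 the difference was -0.186 points. Over the 31 motif sites the difference was -0.339 points (p = 0.4, exact permutation test). As a mean of log2 odds over the 54 positions it was -0.202 (p = 0.1, exact permutation test), and the groups did not overlap. Over the 23 positions without a motif the median differed by -2.34 points, also without overlap (p = 0.1, exact permutation test). Their mean differed by -0.819 points (p = 0.3, exact permutation test).

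At the 3 high sites, the group differences were -4.54 points at 1242, -3.02 at 1502 and -1.23 at 570 (exact permutation tests, p = 0.3, 0.4 and 0.6). Sites 1242 and 1502 were lower in MTH-D in all 3 same-numbered pairs, a pattern seen at 16.4% of all positions averaging at least 10%. Site 570 was lower in 2 of 3 pairs. Each difference was smaller than the pooled SD of its site but larger than the SD of its 3 pair differences, which was 2.995 points at 1242, 2.36 at 1502 and 1.14 at 570. Over the pairs, the exact sign-flip permutation test gave p = 0.25, 0.25 and 0.5. Without MTH-D library 3 the group differences were -1.98 points at 1242 and -1.27 at 1502. None reached 5 points lower, as 15.2% of all positions averaging at least 10% did. Averaged over the 3 sites, m6A was 32.8% ± 3.67 in MTH-WT and 29.9% ± 4.10 in MTH-D (SD, n = 3), with pair differences of -4.38, -1.54 and -2.87 points (p = 0.4, exact permutation test).

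**Figure D4:**
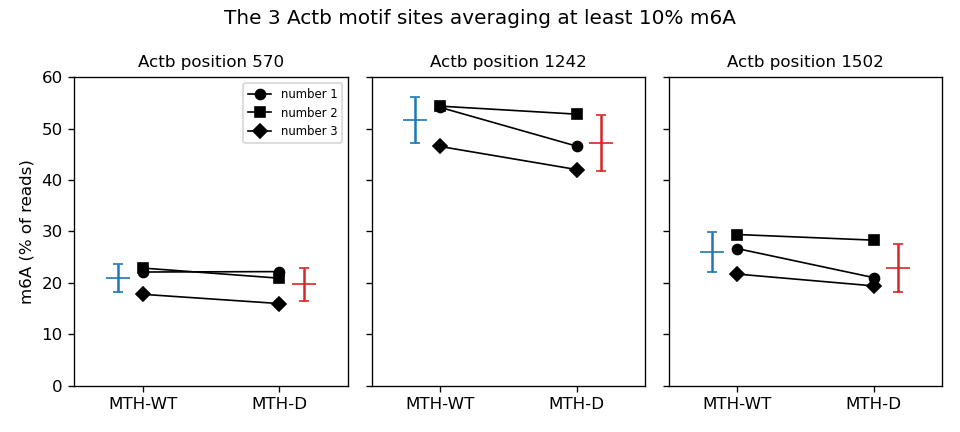
m6A (percent of reads) at Actb mRNA positions 570, 1242 and 1502, with lines joining the MTH-WT and MTH-D libraries of the same number. Colored bars beside the points are the group mean and SD (n = 3). Lines fall from left to right in all 3 pairs at 1242 and 1502 and in 2 of 3 at 570, and the SD bars of the groups overlap at each site.

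The 81436 other positions averaging at least 10% differed between the groups by -0.761 points, with pair differences of -1.46, 0.970 and -1.79. Set against these, the mean of the 3 Actb sites differed by a further -2.17 points, of the same sign in each pair (-2.92, -2.51 and -1.07) and not past the test (exact permutation test, p = 0.2, in a comparison added after the values were seen). Over all listed positions, the Actb difference minus that of the rest of the table was -0.431 points (p = 0.4, exact permutation test, adjusted p = 0.6).

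Of the 9 Actb positions averaging at least 10%, 5 had a lower and 4 a higher mean in MTH-D, where 57.9% of all positions at that level were lower. Their mean was 21.5% ± 3.36 in MTH-WT and 21.3% ± 1.42 in MTH-D (SD, n = 3), a difference of -0.229 points (p = 1, exact permutation test, adjusted p = 1). The largest differences among them were at positions without a motif. Position 1429 differed by -8.09 points, from 14.29%, 33.33% and 10% in MTH-WT to 14.29%, 14.29% and 4.76% in MTH-D, and MTH-WT library 2 stood apart there. It was the single one of the 9 at least 5 points lower. Position 1449 differed by 7.32 points, from 14.29%, 15.69% and 12.82% to 23.08%, 16.67% and 25%, and 1656 by 7.09 points, from 4.55%, 20% and 6.67% to 15%, 25% and 12.50%. At 1449 the groups did not overlap, with every MTH-D library above every MTH-WT library. This pattern was seen at 2.79% of all positions, and at 1686 of the 81446 averaging at least 10%.

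Across all 54 Actb positions, 37 had a lower and 17 a higher mean in MTH-D, where 50.6% of the whole table was lower. In all 3 pairs, 13 of 54 were lower, 10 of them among the 31 motif sites, where 7.99% of the whole table was. In all 3 pairs, 3 of 54 were higher, against 6.59% of the table. Positions of the same mRNA share their libraries, and a position at 0 in MTH-WT cannot be lower in MTH-D, a case that was rare at the Actb motif sites. Every MTH-D library was below every MTH-WT library at 2 of 54 positions, the AGAGA at 1313 and the TGACC at 467, against 2.88% of all positions. At 1313 the values were 3.37%, 4.40% and 4% in MTH-WT and 2.22%, 0% and 0% in MTH-D.

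No position of the whole table changed at an adjusted p under 0.05 in limma (0%), and 3.22% had an unadjusted p under 0.05. Of the 54 Actb positions, 1 had an unadjusted p under 0.05, site 1313 (adjusted p = 0.939, limma with Benjamini-Hochberg adjustment). With the replicate number as a block there were 2 of 54, sites 1313 and 1656, near the 3.05% of the whole table, and the smallest adjusted p in limma over both genes was 0.874. At site 1242 the log2 odds differed by -0.26 ± 0.29 (SE, adjusted p = 0.939, limma). With 3 libraries a group, limma could miss large changes at single positions, so its count of 0 does not show that m6A was the same in the groups.

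In Gapdh no test separated the groups either. Its mean over 30 positions was 2.16%, 2.10% and 1.85% in MTH-WT and 2.94%, 2.97% and 1.83% in MTH-D. Group means were 2.04% ± 0.164 and 2.58% ± 0.646 (SD, n = 3), which differed by 0.540 points (p = 0.4, exact permutation test, adjusted p = 0.6), with pair differences of 0.777, 0.862 and -0.0200. The median went the other way, by -0.307 points. The difference lay outside the motif sites: over the 20 motif sites it was 0.0185 points (p = 1, exact permutation test), while over the 10 positions outside the matched exons the means were 2.11% ± 0.425 and 3.69% ± 2.35. Against the rest of the table the Gapdh difference was 0.652 points higher (p = 0.3, exact permutation test, adjusted p = 0.6).

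By position, 13 Gapdh means were lower and 17 higher in MTH-D (50.6% of the table was lower), and 0 of 30 were lower or higher in all 3 pairs. The single position averaging at least 10% differed by 6.22 points (p = 0.7, exact permutation test, adjusted p = 0.84), and the groups overlapped there. With the minimum lowered to 5%, the mean of the 5 Gapdh positions differed by 2.63 points. The groups did not overlap in this mean (p = 0.1, exact permutation test, the smallest possible). Site 1124 differed by 3.95 points, 1209 by 1.27 and 1063 by -2.11 (exact permutation tests, p = 0.3, 0.7 and 0.3). At 0 of 30 positions was every MTH-D library on the same side of every MTH-WT library. In limma, 0 of 30 had an unadjusted p under 0.05, and the smallest was 0.054 (adjusted p = 0.939).

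**Figure D5:**
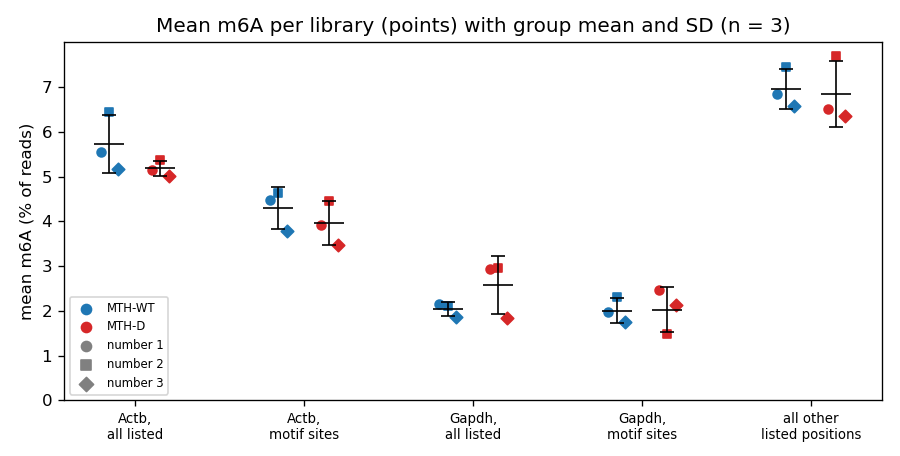
Mean m6A (percent of reads) in each library over the listed positions and the motif sites of Actb and Gapdh and over all other listed positions. Points are libraries, colored by group and shaped by number, with the group mean and SD (n = 3). Over all listed positions, Actb lies between 5.02% and 6.44%, Gapdh between 1.83% and 2.97%, and the rest between 6.34% and 7.69%. MTH-WT and MTH-D differ by less than these steps. Motif sites lie between 3.48% and 4.64% in Actb and between 1.48% and 2.46% in Gapdh.

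Set against each other, Actb exceeded Gapdh by 3.39, 4.33 and 3.33 points in MTH-WT and by 2.21, 2.40 and 3.19 points in MTH-D. The groups did not overlap in this gap, and MTH-D minus MTH-WT was -1.08 points (exact permutation test, p = 0.1, the smallest possible, in a comparison added after the values were seen). Over motif sites alone this was -0.357 points (p = 0.5, exact permutation test) and the groups overlapped.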

How the data were processed

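Nanopore direct RNA sequencing was used to measure m6A in 1000 ng of total RNA per library, with 1 flow cell run for up to 72 h for each of 6 libraries. The authors deposited 1 table of the m6A fraction, from 0 to 1 with 4 decimals, at 567667 rows (567664 distinct positions). The submitters' processing notes name minimap2 2.26, SAMtools and GRCm39. The basecaller, the modification model and the coverage filter are not given in the sources used here. The table has no coverage, so depth is unknown and no interval was computed.

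Fractions were converted to percent and positions, counted from 0 in the table, were numbered from 1. The 2 windows were taken by coordinate. No annotation of GRCm39 was used. Motifs of the GENCODE M21 mRNA with the most motifs in place (then the fewest left over, then the shortest) were matched to positions by their spacing, exon by exon, with at least 3 motifs and a single best placement. No coordinate was converted between builds, and the mRNA sequence was not read from GRCm39.

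Group means were compared by two-sided exact permutation tests, levels within libraries by exact sign-flip permutation tests, and all positions by limma 3.58.1 in R 4.3.3. limma used the log2 odds with 1 percentage point added to both shares and Benjamini-Hochberg adjustment over the whole table. It was tested on simulated data with 200 changed positions, of which it missed most even at the largest change, so its power at single positions was low. Deviations of same-numbered libraries correlated at 0.164, 0.223 and 0.133 over 81446 positions averaging at least 10%, and differently numbered ones at -0.141 to -0.00179. The numbers, from the labels, were therefore also used as pairs. The labels do not say that libraries came from separate cultures, so p-values measure only the spread between these libraries.

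Positions named were the 10 with the highest mean in each gene and the 5 with the largest difference among those averaging at least 10%. Others (261, 1315, 1431, 645, 660, 1313, 467 and 1416 in Actb) were named for their motif or after their values were seen. The members and tests were chosen with earlier results of these data known. The alternatives were leaving out each library, libraries 1 and 3 only, the replicate block, the median, no values of exactly 0 or 1, other minimum levels, log2 odds, another offset and percent in limma. Motif sites alone were added after seeing the data. Gene means and lists of other genes needed a GRCm39 annotation and were not run.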

Additional observations from a re-analysis of the deposited data

How the results depend on the processing

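Of the results, the Actb mean and its sites 1242 and 1502 kept their direction under every alternative run, but not their size, and with these few libraries no alternative could pass the threshold. Leaving out 1 library, the Actb mean ranged from -0.816 (without MTH-WT 3) to -0.186 (without MTH-WT 2), site 1242 from -7.37 (without MTH-D 2) to -1.98 (without MTH-D 3) and site 1502 from -5.72 (without MTH-D 2) to -1.27 (without MTH-D 3). With the replicate block the Actb mean differed by -0.543 points (p = 0.25, exact sign-flip permutation test, the smallest 3 pairs allow), and the block changed no call past an adjusted p. In log2 odds the Actb mean differed by -0.202 (p = 0.1, exact permutation test). The Gapdh positions averaging at least 5% differed by 2.63 points (p = 0.1, exact permutation test). limma called 0 positions under each alternative, which says nothing about stability, since it could miss large changes here. The results below include those that changed sign, and the cause was not tested. With libraries 1 and 3 only, the Actb positions averaging at least 10% differed by 0.824 points, the Actb difference against the rest by 0.00481 and the Gapdh position averaging at least 10% by -0.720. Leaving out 1 library, these Actb positions ranged from -1.79 to 1.54 (without MTH-WT 2; 0.468 without MTH-D 3), the Gapdh position from -1.11 (without MTH-D 2) to 12.8, and site 570 from -2.81 to 0.630 (without MTH-D 3). Restricted to positions averaging at least 10% in both, Actb against the rest gave 0.532. The median over positions turned Gapdh between groups (-0.307 points) and Actb against the rest (0.566). Under the median, Gapdh against the rest (-0.212) and Actb against Gapdh (0.778, exact sign-flip permutation test, p = 0.0625) kept their sign but no longer passed the threshold. Without values of exactly 0 or 1, on the unequally reduced sets given above, Actb against Gapdh turned to -0.769, on 4 Gapdh positions. Actb against the rest was then -9.63 and Gapdh against the rest -8.86, with the sign kept. Over motif sites, Actb against the rest, Gapdh against the rest and Actb against Gapdh kept their sign, at -2.77, -4.89 and 2.11. Without 1 library, Actb against the rest ranged from -1.54 to -1.28, Gapdh against the rest from -4.80 to -4.44 and Actb against Gapdh from 2.90 to 3.33, all at p = 0.0625 in the exact sign-flip permutation test, the smallest 5 libraries allow. The gene means of the whole table and a minimum mean of 20% in Gapdh, where no position reached it, were not run. The unknown depth limits every value, most of all in Gapdh.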

Other observations

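Of the 23 listed Actb positions without a motif, 15 were adenosines 1 letter from DRACH and 5 were next to a motif site, together 17 positions, 2 had the motif on the opposite strand and 4 were neither. Their median of 6.03% exceeded that of the 31 motif sites, 0.922%, and 26.1% of them averaged at least 10% against 9.68% of the motif sites. However, 60.9% of them had a 0 in at least 1 library, against 6.45% of the motif sites, and some were T, C or G. With depth unknown, these levels do not show that they carry more m6A than the motif sites.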
